A study of Mus musculus with 18 samples.

Results

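The 10 genes described here are parts of the Notch signalling pathway: the receptors Notch1, Notch2 and Notch3, the ligands Jag1, Jag2 and Dll1, the receptor-modifying enzymes Lfng and Mfng, the DNA-binding protein Rbpj and its coactivator Maml1. They were taken by gene symbol, with earlier results of these data known, and are 10 of 21011 rows in a table of read counts. All 10 were among the 16517 genes with enough counts to be tested. Notch receptors sit in the membrane and are bound by Jagged and Delta-like ligands on neighbouring cells. Binding leads to cleavage of the receptor, and the freed inner part enters the nucleus, where it joins Rbpj and a Mastermind protein to switch on target genes. In the epidermis this signalling is known for promoting the exit of keratinocytes from the basal layer and their differentiation, and for its part in hair follicles and sebaceous glands.

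The samples were 11 mutant mice and 7 controls, 1 library for each mouse. In KR mice (n = 4) Rbpj was deleted with K14-CreERT, whose keratin 14 promoter is active in basal keratinocytes. In LR mice (n = 3) Rbpj was deleted with Lrig1-CreERT2, which follows Lrig1, a gene active in the upper part of the hair follicle. In KN1 mice (n = 4) Notch1 was deleted with a driver that the labels write as K14-CreERT1. The controls were 2 for KR, 3 for LR and 2 for KN1, each from the batch or litter of its mutant, and the labels used here do not give their alleles or Cre. Deletion was induced with tamoxifen in mice aged 8 weeks, and their dorsal skin was collected 10 weeks afterwards, in telogen, the resting phase of hair follicles, by the labels. RNA came from all cells scraped from the dermis. Cells that escaped deletion and cells without Cre can be among them, and their share was not measured. In such mixtures fewer cells of a type and less RNA per cell cannot be told apart.

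Total counts lay between 8076316 and 21216169 in each mouse. The largest totals belonged to KN1 control 1 and KR control 4, whose reads were merged from a pair of sequencing occasions. KR control 6, LR control 5 and KN1 control 7 carry a second name in the labels and are called second-named controls below. Markers of keratinocytes were high throughout: summed levels of 7 basal markers ran from 28193 to 43361 CPM (read counts scaled for library size), with Krt5 between 11180 and 18640 CPM. Summed levels of the endothelial list, by contrast, were at most 9.81 CPM and those of the fibroblast list at most 59.1 CPM. The 10 hair matrix and shaft markers summed to between 22.9 and 541 CPM, with 541 CPM in KN1 mouse 2, 532 CPM in KR mouse 5, 468 CPM in LR mouse 2 and 349 CPM in KR control 6, and their part in the results was not tested. Library sizes behind each CPM were scaled by TMM (trimmed mean of M values), changes are log2 fold changes of mutants over their own controls with a standard error (SE), and adjusted p-values are from edgeR's two-sided quasi-likelihood test with Benjamini-Hochberg adjustment over all 16517 genes, called below 0.05.

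The promoters of the members that the results turn on are shown because Rbpj binds DNA and because Rbpj, Notch2 and Jag2 are the members that changed in the mean over mutants. The core of the sequence that Rbpj is known to bind, TGGGAA, was searched on both strands, where its other strand reads TTCCCA, in windows of 250 bases before to 50 bases after each gene start from RefSeq (build GRCm38.p6). Of 32851 such windows over all genes, 25.6% held it, and 6.38% held the longer GTGGGAA or its other strand TTCCCAC, which contain the core. Windows were found for 9 of the 10 members, and Mfng is named only. Matches were found in Rbpj and in Lfng, and these letters were not in the windows of Notch1, Notch2, Notch3, Jag1, Jag2, Dll1 or Maml1. Rbpj (chr5:53590096-53590395, plus strand) held 2 matches, starting 149 and 65 bases before the gene start. Lfng (chr5:140607091-140607390, plus strand) held 2 matches as well, starting 135 and 108 bases before the start, and the one at 108 is part of GTGGGAA. Jag2 (chr12:112929446-112929745, minus strand), Notch2 (chr3:98013288-98013587, plus strand) and Notch1 (chr2:26503773-26504072, minus strand) are given for comparison, and Jag2 stands out by a share of G and C of 86% against a median of 52.7% over all windows. Each is written 5′ to 3′ on the strand of its gene, with matches in capitals.
Rbpj: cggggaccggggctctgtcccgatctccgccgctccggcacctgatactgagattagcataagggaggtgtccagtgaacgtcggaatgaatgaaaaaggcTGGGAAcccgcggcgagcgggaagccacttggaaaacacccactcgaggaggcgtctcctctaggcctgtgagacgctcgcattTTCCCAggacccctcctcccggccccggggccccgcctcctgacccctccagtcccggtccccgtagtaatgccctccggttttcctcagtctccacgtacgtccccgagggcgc
Lfng: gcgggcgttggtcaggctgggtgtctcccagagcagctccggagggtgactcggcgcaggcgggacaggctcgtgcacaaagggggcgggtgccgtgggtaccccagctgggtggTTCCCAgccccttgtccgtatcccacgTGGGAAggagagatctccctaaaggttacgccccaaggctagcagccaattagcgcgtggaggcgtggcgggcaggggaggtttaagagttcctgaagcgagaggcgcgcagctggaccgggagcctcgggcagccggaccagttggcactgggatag
Jag2: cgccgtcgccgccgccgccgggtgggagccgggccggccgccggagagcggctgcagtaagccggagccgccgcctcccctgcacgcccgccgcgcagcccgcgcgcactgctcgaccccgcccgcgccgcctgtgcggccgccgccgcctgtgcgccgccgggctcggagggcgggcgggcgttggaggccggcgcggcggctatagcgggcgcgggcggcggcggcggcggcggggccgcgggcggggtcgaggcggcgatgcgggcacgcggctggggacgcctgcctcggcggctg
Notch2: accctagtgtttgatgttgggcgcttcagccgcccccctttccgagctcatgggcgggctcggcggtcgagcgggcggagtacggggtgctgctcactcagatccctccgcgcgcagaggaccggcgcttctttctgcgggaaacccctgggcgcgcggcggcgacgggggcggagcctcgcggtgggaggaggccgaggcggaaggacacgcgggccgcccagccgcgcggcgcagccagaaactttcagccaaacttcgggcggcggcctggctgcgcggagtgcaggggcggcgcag
Notch1: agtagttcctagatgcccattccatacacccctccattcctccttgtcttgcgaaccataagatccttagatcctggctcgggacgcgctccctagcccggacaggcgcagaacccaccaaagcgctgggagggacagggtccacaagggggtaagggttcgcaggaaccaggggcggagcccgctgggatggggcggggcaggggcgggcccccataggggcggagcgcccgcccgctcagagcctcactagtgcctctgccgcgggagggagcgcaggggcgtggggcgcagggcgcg
A match describes the letters only, and binding was not measured.

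Notch1 was the 1 member that passed the test in a single mutant, and the mutant was the one in which it was deleted. Notch1 (chr2:26457903-26516663, minus strand, protein coding, GENCODE M21 on GRCm38) had 105, 156, 81.9 and 107 CPM in the 4 KN1 mice, against 251 and 172 CPM in the KN1 controls. Every KN1 mouse was below both controls, as was so for 14.3% of all genes, and the nearest values were 156 CPM in KN1 mouse 2 and 172 CPM in KN1 control 7. The level was 1.88-fold lower in KN1, or -0.91 ± 0.19 (SE) on the log2 scale, with an adjusted p of 0.0251 in edgeR's test, where 1.97% of all genes passed in either direction and 1.11% were lower. The call rested on single mice: adjusted p was 0.164 without KN1 control 1 (log2 fold change -0.62), 0.119 without KN1 control 7 (-1.17) and 0.0758 without KN1 mouse 4 (-0.89). These are counts over the whole gene, which do not resolve a deleted exon, and Notch1 RNA remained in all 4 KN1 mice. The 7 epidermal T cell markers, none at 0 in any mouse, summed to between 53.7 and 91.3 CPM in KN1, against 127 and 178 CPM in KN1 controls, and 3 of the 7 were called lower. The 10 hair matrix and shaft markers summed to between 40.0 and 541 CPM in KN1, against 22.9 and 38.8 CPM in KN1 controls. None of these 10 was called, and 3 were at 0 in KN1 control 7. Their part in the Notch1 level was not tested. In the Rbpj mutants Notch1 had 330, 384, 363 and 318 CPM in KR, against 342 and 326 CPM in KR controls. In LR it had 380, 329 and 397 CPM, against 346, 381 and 412 CPM in LR controls. Both pairs of groups overlapped, with log2 fold changes of 0.06 ± 0.20 in KR and -0.04 ± 0.19 in LR.

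Notch2 (chr3:98013527-98150361, plus strand), a second receptor of the family, was lower in the mean of both Rbpj mutants. It had 110, 143, 138 and 101 CPM in the KR mice, against 188 and 183 CPM in KR controls. All 4 KR mice lay below both controls, as was so for 19.5% of all genes. In LR it had 162, 154 and 116 CPM, against 159, 190 and 271 CPM in LR controls, and LR mouse 1 was above the lowest control. In KN1 it had 99.2, 108, 97.0 and 119 CPM, against 102 and 132 CPM in KN1 controls, and 2 of the 4 KN1 mice lay between the controls. Neither Rbpj mutant passed on its own, with log2 fold changes of -0.59 ± 0.20 in KR (adjusted p = 0.104) and -0.52 ± 0.19 in LR (adjusted p = 0.187), and adjusted p in KR was 0.0378 when LR control 5, a mouse of another batch that enters the shared estimate of the spread, was left out. Without that control the change in LR was -0.28. The mean of the KR and LR changes was -0.56 ± 0.14 (adjusted p = 0.0149), in a comparison where 12.7% of all genes passed and 6.80% were lower. This mean missed the threshold without KR control 4 (-0.55, adjusted p = 0.0505), without KR control 6 (-0.58, adjusted p = 0.0521) and without the 3 second-named controls (-0.46, adjusted p = 0.0771), and it was -0.25 with the second-named share as a covariate. That share was set to 1 in the second-named controls, 0.5 in the 2 merged controls and 0 in all other mice.

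Notch3 (chr17:32120820-32166852, minus strand), a receptor that in skin is found mainly above the basal layer, passed in none of the mutants. It had 219, 241, 215 and 187 CPM in the KR mice, against 262 and 242 CPM in KR controls, and these groups did not overlap, as was so with the mutant lower for 19.5% of all genes. In LR it had 274, 245 and 221 CPM, against 257, 290 and 296 CPM in LR controls. In KN1 it had 157, 201, 145 and 182 CPM, against 173 and 174 CPM in KN1 controls. The log2 fold changes were -0.22 ± 0.14 in KR, -0.19 ± 0.14 in LR and -0.02 ± 0.15 in KN1. Suprabasal keratinocyte markers were lower in the Rbpj mutants, with median log2 fold changes of -0.94 in KR and -0.66 in LR. By the test 1 of the 9 fell in KR and 0 in LR, beside 0.902% and 0.248% of all genes called lower. The 9 markers, none of which was at 0 in any mouse, summed to between 12756 and 28131 CPM in KR, against 31756 and 31758 CPM in KR controls. In LR the sums were 11770 to 31504 CPM, against 21471 to 38258 CPM in LR controls, and in KN1 37020 to 45056 CPM, against 43048 to 44962 CPM in KN1 controls. Their part in the receptor levels was not tested.

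**Figure D1:**
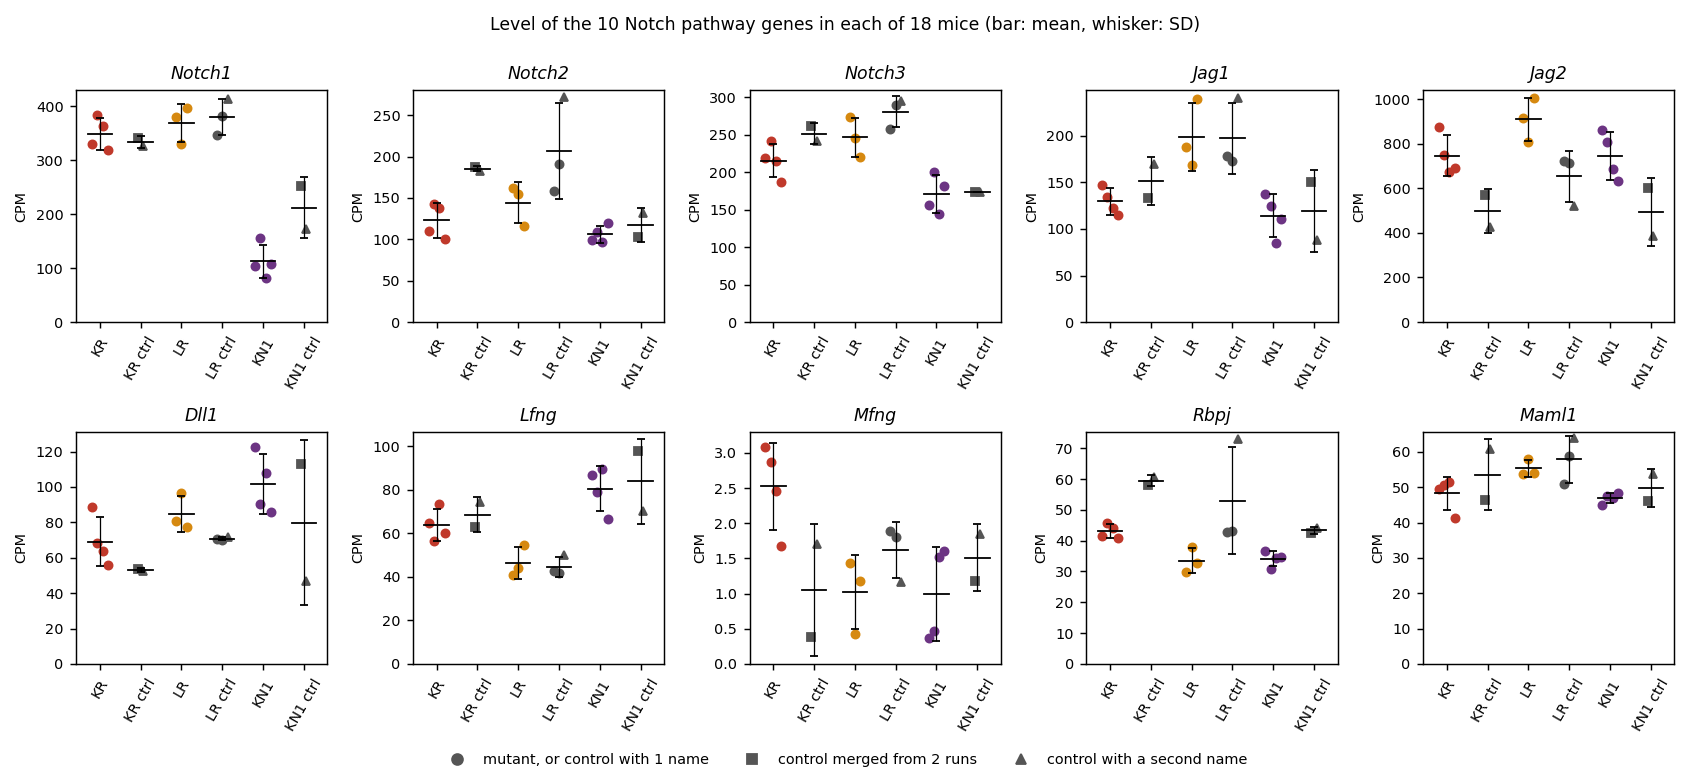
Level of each of the 10 genes in CPM (vertical axes, from 0) in every mouse of the 3 mutants, each left of its own controls, with bars for the mean and whiskers for the SD; squares are controls merged from a pair of runs and triangles are second-named controls. Notch1 is low in KN1 with 81.9 to 156 CPM, and Jag2 is higher in all mutants than in any of their own controls.

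Jag2 (chr12:112907819-112929776, minus strand), a ligand of the Jagged family and the most abundant member, was above every control of its batch in all 11 mutant mice. It had 873, 751, 673 and 690 CPM in KR, against 568 and 428 CPM in KR controls. LR mice had 914, 808 and 1004 CPM, against 722, 714 and 522 CPM in LR controls. KN1 mice had 862, 806, 685 and 630 CPM, against 600 and 385 CPM in KN1 controls. Groups that did not overlap, with the mutant higher, were found for 19.0% of all genes in KR, 10.3% in LR and 13.8% in KN1. None of the 3 single comparisons passed, with log2 fold changes of 0.58 ± 0.20, 0.48 ± 0.19 and 0.60 ± 0.20 in KR, LR and KN1 (edgeR adjusted p = 0.116, 0.217 and 0.128). Single controls moved these values: KN1 was at 0.31 without KN1 control 7 and 0.95 without KN1 control 1, and KR at 0.37 without KR control 6. The mean of the KR and LR changes was 0.53 ± 0.14 (adjusted p = 0.0194), where 5.91% of genes were called higher. Over all 3 mutants the mean change was 0.55 ± 0.11 (adjusted p = 0.00338), where 21.7% of genes passed and 10.6% were higher.

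The second-named controls had the lowest Jag2 level in each batch, with 428, 522 and 385 CPM. They also had the highest mitochondrial share of counts in each batch, with 3.17%, 2.27% and 1.23%. That share was 0.982 to 1.72% in KR, against 1.87% in KR control 4. It was 0.839 to 1.17% in LR, against 0.895 and 0.892% in the other LR controls, and 0.650 to 0.981% in KN1, against 1.11% in KN1 control 1. Its part in the Jag2 level was not tested. Without the second-named controls the mean change was 0.34 over the 3 mutants (adjusted p = 0.0712) and 0.35 over KR and LR (adjusted p = 0.138). With the second-named share as a covariate these means were 0.19 and 0.21, and neither passed. The mean over KR and LR also missed the threshold without KR control 6 (0.42, adjusted p = 0.135) and without LR mouse 3 (0.49, adjusted p = 0.0523). The mean over the 3 mutants passed whichever single mouse was left out, with values between 0.45 and 0.67.

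Jag1 (chr2:137081456-137116644, minus strand), the other Jagged ligand, passed in no mutant. It had 147, 134, 123 and 115 CPM in KR, against 133 and 170 CPM in KR controls. In LR the levels were 188, 168 and 239 CPM, against 178, 173 and 241 CPM in LR controls. In KN1 they were 137, 125, 84.6 and 111 CPM, against 150 and 88.4 CPM in KN1 controls. All 3 pairs of groups overlapped, and the log2 fold changes lay between -0.22 and 0.01 with SEs of 0.21 to 0.22.

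Dll1 (chr17:15367354-15376872, minus strand), a Delta-like ligand, had positive but uncalled changes. It had 88.4, 68.4, 64.1 and 55.6 CPM in KR, against 53.8 and 52.3 CPM in KR controls. LR mice had 80.5, 96.6 and 77.3 CPM, against 70.8, 69.9 and 71.9 CPM in LR controls. Neither pair overlapped, as was so with the mutant higher for 19.0% of all genes in KR and 10.3% in LR. The log2 fold changes were 0.38 ± 0.25 in KR (adjusted p = 0.372) and 0.26 ± 0.23 in LR (adjusted p = 0.640). In KN1 the levels were 122, 90.2, 108 and 85.9 CPM, against 113 and 46.9 CPM in KN1 controls. The 2 KN1 controls differed more from each other than the KN1 mice did. The KN1 change was 0.34 ± 0.25 (adjusted p = 0.487) with both controls, 1.11 without KN1 control 1 (adjusted p = 0.0343) and -0.15 without KN1 control 7 (adjusted p = 0.830).

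Jag2 also took a larger part of the ligand counts. Its share of the counts of Jag1, Jag2 and Dll1 was 79.0 ± 0.84% in KR and 70.5 ± 6.70% in KR controls (SD, n = 4 and 2). It was 76.2 ± 1.01% in LR and 70.5 ± 6.90% in LR controls (n = 3 each), and 77.5 ± 1.24% in KN1 and 71.8 ± 3.17% in KN1 controls (n = 4 and 2). The groups overlapped in none of the 3, and the exact permutation p was 0.0667 in KR, 0.1 in LR and 0.0667 in KN1, which are the smallest that 4 against 2 and 3 against 3 mice allow. Adjusted over the 9 share tests, these exact permutation p-values were 0.15, 0.18 and 0.15. A share within a library needs no scaling factor, but the 3 ligands differ in the share of G and C in their longest transcript. It was 61.9% in Jag2, 54.9% in Dll1 and 48.8% in Jag1. Among genes within 1 percentage point of these, the median change over the 3 mutants was 0.34, 0.13 and -0.0245. The part of this composition in the Jag2 share was not tested. Without the second-named controls the difference in LR was 1.71 percentage points in place of 5.69, and in KR it was 3.72 in place of 8.46. In KN1 it was 8.00 in place of 5.75, and 3.51 without KN1 control 1. In KR it was 13.2 without KR control 4.

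The balance among the receptors went different ways. Notch1 made up 50.8 ± 1.18% of the counts of Notch1, Notch2 and Notch3 in KR and 43.3 ± 0.18% in KR controls. It made up 48.6 ± 4.83% in LR and 43.9 ± 1.66% in LR controls, and 28.5 ± 3.71% in KN1 and 41.8 ± 8.29% in KN1 controls. KR and KN1 did not overlap with their controls and LR did. The exact permutation p was 0.0667 in KR, 0.2 in LR and 0.0667 in KN1. Adjusted over the 9 tests, these exact permutation p-values were 0.15, 0.225 and 0.15. The smallest p that the group sizes allow is 0.0667 in KR and KN1 and 0.1 in LR. No share could therefore pass the threshold, and these tests do not decide whether the Notch1 share changed. The KN1 difference of -13.3 percentage points was -7.48 without KN1 control 1, and the LR difference of 4.74 was 1.98 without LR mouse 3.

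**Figure D2:**
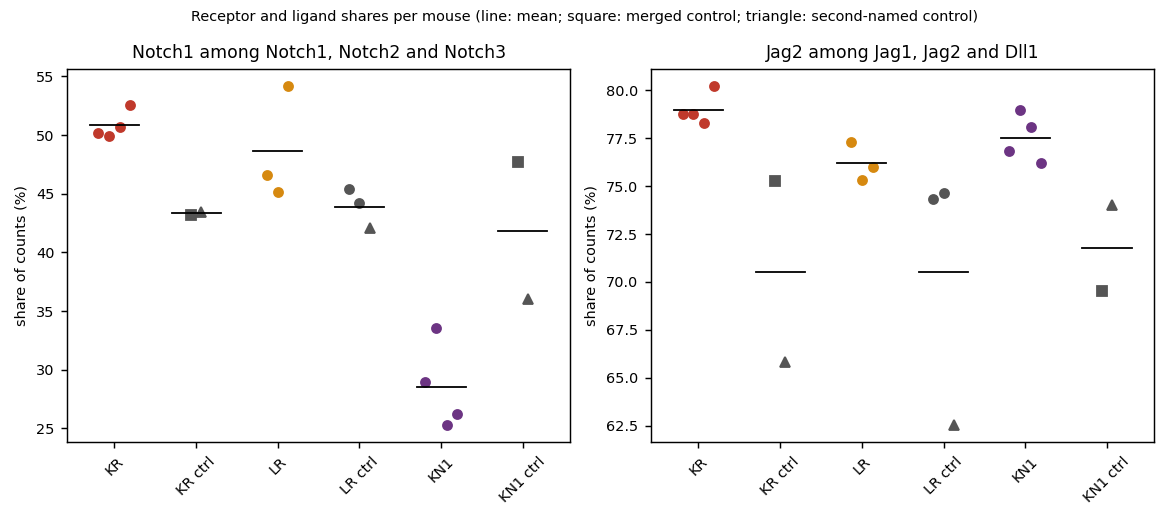
Share of Notch1 among the counts of the 3 receptors (left) and of Jag2 among the counts of the 3 ligands (right), in percent, for every mouse, with each mutant left of its controls and a line at the group mean; the axes do not start at 0. The Jag2 share averages 76.2 to 79.0% in the mutants and 70.5 to 71.8% in the controls, and the Notch1 share averages 28.5% in KN1.

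Rbpj (chr5:53466152-53657362, plus strand), the DNA-binding protein of the pathway and the gene deleted in KR and LR, was lower in every mutant mouse than in any control of its batch, and this held in KN1 too, where Rbpj was not the deleted gene. It had 41.4, 45.9, 44.0 and 40.9 CPM in KR, against 58.1 and 60.8 CPM in KR controls. LR mice had 29.9, 37.9 and 32.7 CPM, against 42.7, 43.3 and 73.1 CPM in LR controls. KN1 mice had 36.8, 30.9, 34.5 and 34.6 CPM, against 42.6 and 44.2 CPM in KN1 controls. Groups that did not overlap, with the mutant lower, were found for 19.5% of all genes in KR, 9.29% in LR and 14.3% in KN1. No single comparison passed, with log2 fold changes of -0.47 ± 0.17, -0.66 ± 0.17 and -0.34 ± 0.18 in KR, LR and KN1 (edgeR adjusted p = 0.135, 0.0659 and 0.310). With 1 mouse left out, Rbpj passed in LR without LR control 2 (-0.80, adjusted p = 0.0398) and in KR without LR control 5 (-0.47, adjusted p = 0.0229). Without LR control 5, the change in LR itself was -0.36.

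Over KR and LR, the mean change of Rbpj was -0.56 ± 0.12 (adjusted p = 0.00808), and it passed whichever single mouse was left out, with values between -0.63 and -0.41. Over all 3 mutants it was -0.49 ± 0.10 (adjusted p = 0.00329), where 11.1% of genes were called lower. The second-named control had the highest Rbpj level in each batch, with 60.8, 73.1 and 44.2 CPM. Without these controls the mean over KR and LR was -0.41 (adjusted p = 0.0392) and the mean over the 3 mutants -0.38 (adjusted p = 0.0183). With the second-named share as a covariate both missed the threshold, at -0.22 and -0.12. Like Notch1, Rbpj was counted over the whole gene, and the counts do not show which part of the transcript remained.

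Maml1 (chr11:50255634-50292311, minus strand), the Mastermind coactivator that binds the complex of receptor and Rbpj, varied least of all members, with 41.2 to 63.9 CPM over the 18 mice and an SD within groups of 0.14 on the log2 scale. It had 49.6, 50.6, 51.6 and 41.2 CPM in KR, against 46.4 and 60.7 CPM in KR controls. The log2 fold change was -0.15 ± 0.14 in KR, -0.07 ± 0.13 in LR and -0.08 ± 0.14 in KN1, and none passed.

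Lfng (chr5:140607320-140615545, plus strand) and Mfng (chr15:78755882-78773475, minus strand) encode Fringe enzymes, which add sugars to the receptors and so alter their response to Jagged and Delta-like ligands. Lfng had 64.8, 56.6, 73.6 and 60.3 CPM in KR, against 62.9 and 74.1 CPM in KR controls. It had 40.7, 43.9 and 54.7 CPM in LR, against 42.4, 41.6 and 49.8 CPM in LR controls, and 86.6, 78.8, 89.7 and 66.6 CPM in KN1, against 97.6 and 70.0 CPM in KN1 controls. All pairs overlapped, and the log2 fold changes were -0.10 ± 0.17, 0.06 ± 0.16 and -0.06 ± 0.17. Mfng was near the limit of detection, with 3 to 29 counts in each mouse and at most 3.09 CPM. Its log2 fold change in KR was 1.34 ± 0.63 (adjusted p = 0.210), with 3.09, 2.87, 2.46 and 1.68 CPM in KR, against 0.386 and 1.71 CPM in KR controls. It was 0.55 without KR control 4 and 2.64 without KR control 6. Lfng made up 95.2% or more of the counts of this pair of genes in every mouse.

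**Figure D3:**
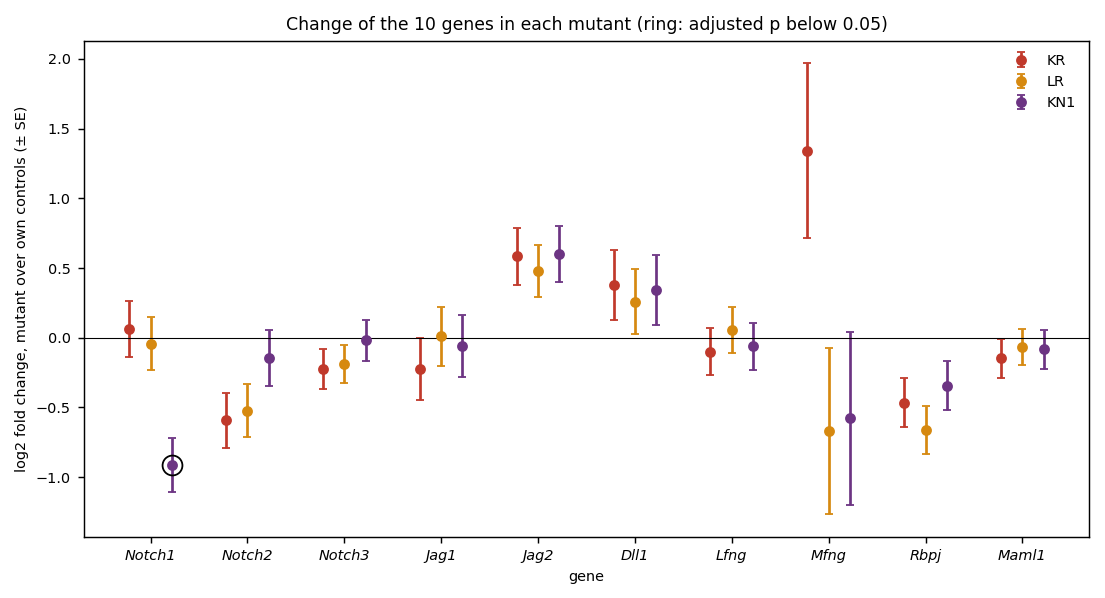
Log2 fold change of each gene in KR, LR and KN1 over its own controls (points) with its SE (whiskers); a ring marks adjusted p below 0.05. The 1 ringed point is Notch1 in KN1 at -0.91, Jag2 lies between 0.48 and 0.60 in all 3 mutants, and Rbpj between -0.66 and -0.34.

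Counted together, 0 of 10 members passed in KR, 0 in LR and 1 in KN1, where 1.60%, 1.12% and 1.97% of all genes passed. Of all genes, 0.696%, 0.872% and 0.860% were called higher in KR, LR and KN1, and 0.902%, 0.248% and 1.11% lower. At an unadjusted p below 0.05 the edgeR test counted 4, 3 and 2 of the 10 members, beside 22.9%, 15.5% and 18.5% of all genes. DESeq2 called 0, 1 and 1 of the members by adjusted p. In the mean of KR and LR, and likewise in the mean of the 3 mutants, 1 member rose (Jag2) and 2 fell (Notch2 and Rbpj). Of all genes, 5.91% were called higher and 6.80% lower in the first mean, and 10.6% and 11.1% in the second. The mean of the 3 mutants was -0.42 ± 0.11 for Notch2 (adjusted p = 0.0148), with adjusted p of 0.0595 without KN1 control 7 and 0.136 without the second-named controls. The median change of the 10 members was -0.12 in KR, -0.05 in LR and -0.07 in KN1, beside medians of 0.04, -0.00 and 0.02 over all genes.

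Whether a member changed by different amounts in different mutants was tested directly. None of the 10 members passed in any of the 3 differences, by edgeR or by DESeq2. EdgeR called 1, 0 and 1 of all 16517 genes, or 0.00605%, 0% and 0.00605%, in KR against LR, KR against KN1 and LR against KN1. At an unadjusted p below 0.05 it counted 1, 2 and 1 of the members, beside 4.15%, 7.57% and 7.04% of all genes. The nearest was Notch1, whose change was 0.98 ± 0.28 more positive in KR than in KN1 (adjusted p = 0.452) and 0.87 ± 0.27 more positive in LR than in KN1 (adjusted p = 0.440). For Rbpj the KR change differed from that of LR by 0.20 ± 0.25 and from that of KN1 by -0.12 ± 0.25, and the LR change differed from that of KN1 by -0.32 ± 0.25. For Jag2 these differences were 0.11 ± 0.27, -0.01 ± 0.28 and -0.12 ± 0.27. A difference that misses the threshold does not show that the mutants changed alike.

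The controls of the KN1 batch already stood apart from the other controls in the receptors. Compared with the mean of KR and LR controls, KN1 controls had less Notch1 (-0.75 ± 0.20, adjusted p = 0.0114), less Notch2 (-0.74 ± 0.20, adjusted p = 0.0132) and less Notch3 (-0.62 ± 0.15, adjusted p = 0.00571), and more Lfng (0.60 ± 0.16, adjusted p = 0.0111). Here 25.7% of all genes passed, 13.4% of all genes being higher and 12.3% lower in KN1 controls. Notch3, as an example, averaged 174 ± 0.46 CPM in KN1 controls, 252 ± 14.1 CPM in KR controls and 281 ± 20.8 CPM in LR controls (SD, n = 2, 2 and 3). With 1 mouse left out, the Notch1 difference missed the threshold without KN1 control 7 (-0.52, adjusted p = 0.184), as did Notch3 (-0.63, adjusted p = 0.0518). The differences in Notch2 (-0.57, adjusted p = 0.149) and Lfng (0.34, adjusted p = 0.240) missed it without KN1 control 1. The batch and whatever else set these controls apart cannot be told apart, which is why each mutant was set against its own controls.

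Levels of different genes were set side by side per length, taken as all annotated exons of a gene merged. That was 12750 bases for Rbpj and 14232 for Notch1. Merged exons can be longer than any single transcript, which lowers the level per kilobase, and the order of genes depends on this choice. Over the 7 controls, Jag2 had 80.8 ± 18.6 CPM per kilobase of exon (SD), Notch3 29.9 ± 6.22, Jag1 27.8 ± 8.00, Lfng 25.0 ± 8.02, Notch1 22.4 ± 5.74, Notch2 16.2 ± 4.96, Dll1 16.2 ± 5.23, Maml1 9.83 ± 1.27, Rbpj 4.09 ± 0.95 and Mfng 0.50 ± 0.19 CPM per kilobase. Jag2 was above the next gene in 18 of 18 mice, and Dll1 was above Maml1, Maml1 above Rbpj and Rbpj above Mfng in 18 of 18 as well. The 6 genes from Notch3 to Dll1 did not hold a fixed order: Notch3 was above Jag1 in 14 of 18 mice, Jag1 above Lfng in 7, Lfng above Notch1 in 11, Notch1 above Notch2 in 14 and Notch2 above Dll1 in 5. Rbpj, the effector shared by all 3 receptors, had a lower level per kilobase than every receptor in these controls.

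The members differed in base composition. The share of G and C in the longest transcript was 61.9% in Jag2 and 43.7% in Rbpj, the highest and lowest of the 10, beside a median of 50.1% over all tested genes with a value (81.4% of them). Across all genes the mean change of the 3 mutants was higher in genes rich in G and C: its median was -0.27 in genes of 36 to 39% and 0.45 in genes of 63 to 66%. Among 255 genes within 1 percentage point of Jag2 the median was 0.34, against 0.55 for Jag2, and 30.6% were called higher. Among 1136 genes as close to Rbpj it was -0.14, against -0.49 for Rbpj, and 18.8% were called lower. Notch2 was at -0.42 beside a median of 0.09 among 1455 genes within 1 point of its 53.6%, of which 6.46% were called lower. Other members also lay below genes of like composition: Notch1 (57.1%) was at -0.30 beside 0.18, Notch3 (59.6%) at -0.14 beside 0.23 and Lfng (58.8%) at -0.036 beside 0.23. So did Maml1 (55.7%) at -0.099 beside 0.15, Mfng (58.1%) at 0.032 beside 0.205 and Jag1 (48.8%) at -0.093 beside -0.0245. Dll1 (54.9%) lay above, at 0.33 beside 0.13.

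With an offset for the share of G and C fitted in each library, an alternative chosen after the data were seen, the mean change over KR and LR was -0.39 for Rbpj (adjusted p = 0.0212), -0.63 for Notch2 (adjusted p = 0.0138) and 0.22 for Jag2 (adjusted p = 0.178). Notch3 passed in this mean under the offset (-0.46, adjusted p = 0.0189). Over the 3 mutants Jag2 was at 0.27 (adjusted p = 0.0339) and Rbpj at -0.33 (adjusted p = 0.00997). Notch1 (-0.45, adjusted p = 0.0126) and Notch3 (-0.37, adjusted p = 0.0121) passed as well under this offset, so that 5 members were called in place of 3. Of all 16517 genes, 2874 were called in this mean with the offset and 3576 without it.

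**Figure D4:**
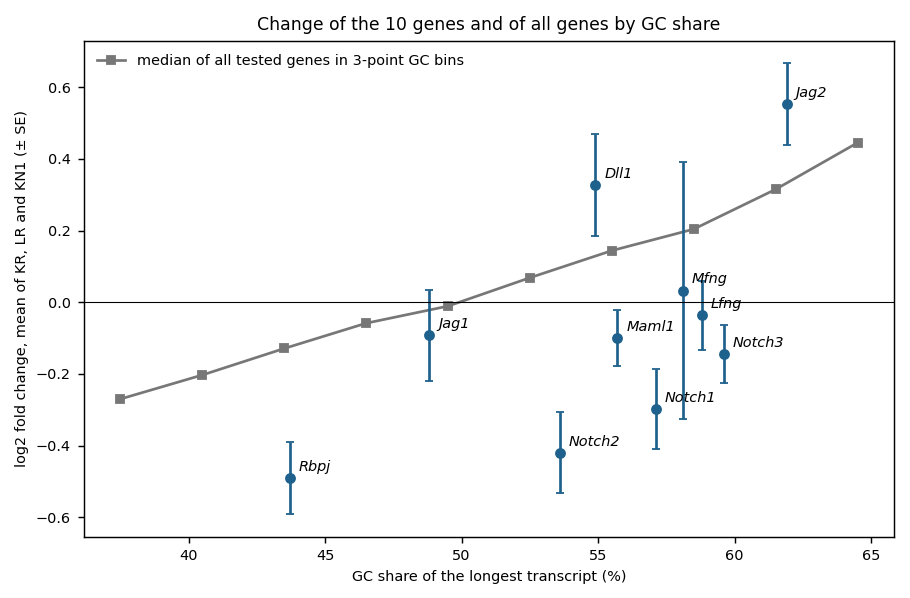
Mean log2 fold change over KR, LR and KN1 (vertical axis, points with SE) of each of the 10 genes against the share of G and C in its longest transcript in percent (horizontal axis), with squares for the median of all tested genes in bins of 3 percentage points. The medians run from -0.27 to 0.45. Below them lie Rbpj (-0.49), Notch2 (-0.42), Notch1 (-0.30), Notch3 (-0.14), Maml1 (-0.099), Jag1 (-0.093), Lfng (-0.036) and Mfng (0.032), and above them Jag2 (0.55) and Dll1 (0.33).

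**Figure D5:**
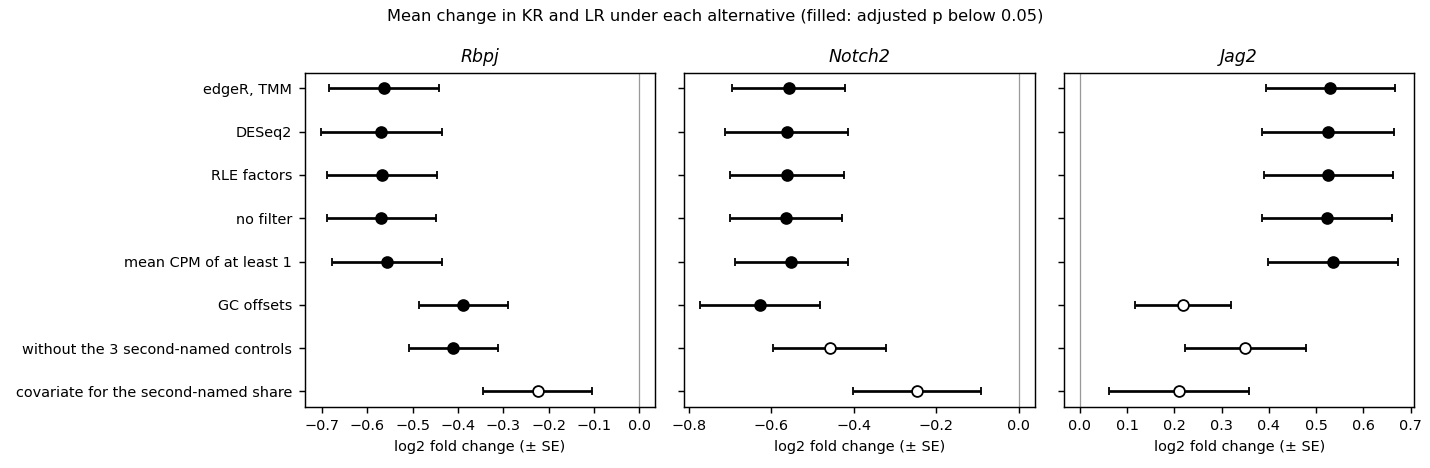
Mean log2 fold change of Rbpj, Notch2 and Jag2 over KR and LR (horizontal axes) with its SE, under the edgeR fit and 7 alternatives (vertical axis); filled points have adjusted p below 0.05. Rbpj passes in all but the covariate for the second-named share (-0.22), Notch2 in all but the fits that treat the second-named controls apart (-0.46 and -0.25), and Jag2 additionally misses the threshold with GC offsets (0.22).

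Of 51 other genes of the pathway listed, 50 were in the table and 47 were tested. In single mutants 1 of the 47 fell in KR, 1 rose in LR and 2 rose in KN1, beside 0.902%, 0.872% and 0.860% of all genes called in the same direction. Itch, a ubiquitin ligase that acts on Notch receptors, fell in KR with 35.4, 37.6, 45.8 and 35.1 CPM, against 62.2 and 68.5 CPM in KR controls (-0.76 ± 0.17, adjusted p = 0.0385). Tle1, a Groucho-type corepressor, rose in LR with 83.5, 64.8 and 126 CPM, against 42.4, 43.4 and 43.6 CPM in LR controls (1.08 ± 0.20, adjusted p = 0.0107). Among those that rose in KN1 was the corepressor Ncor1 (0.71 ± 0.16, adjusted p = 0.0317).

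These calls rested on single mice, and without the 3 second-named controls none of the listed genes passed in a single mutant by edgeR. Itch in KR missed the threshold without either KR control (adjusted p = 0.101 without control 4 and 0.369 without control 6), without KR mouse 1 (0.0749), 3 (0.116) or 5 (0.103) and without KN1 mouse 4 (0.0522). Tle1 in LR missed it without LR control 3 (adjusted p = 0.0575) or LR mouse 3 (0.0761). Ncor1 missed it without KN1 control 1 (adjusted p = 0.0536), KN1 control 7 (0.329), KN1 mouse 3 (0.0609) or KN1 mouse 4 (0.0808).

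In the mean of KR and LR, 6 of the 47 rose and 5 fell, beside 5.91% and 6.80% of all genes. Among those that rose were the receptor Notch4 (1.39 ± 0.33), the non-canonical ligand Dlk2 (0.62 ± 0.19), the ubiquitin ligase genes Neurl1b (0.58 ± 0.15) and Dtx3 (1.07 ± 0.24), and the corepressor Tle1 (0.76 ± 0.15). Among those that fell were the sheddase Adam17 (-0.48 ± 0.12), the gamma-secretase subunit Aph1b (-0.63 ± 0.14), Itch (-0.59 ± 0.12) and the histone deacetylase Hdac2 (-0.28 ± 0.09). Itch and Tle1 passed whichever single mouse was left out. Adam17 (adjusted p = 0.0553) and Aph1b (0.0526) missed the threshold without KR control 4, Dtx3 (0.0656) without KR control 6, and Notch4 without KR control 4 (0.0577) or 6 (0.0554). Neurl1b missed it without KR control 4 (adjusted p = 0.0644), KR control 6 (0.0918) or LR mouse 3 (0.0603). Dlk2 and Hdac2 had adjusted p-values of 0.0448 and 0.0454, and left-out mice moved these as far as 0.224 and 0.128. With the second-named share as a covariate 0 of the 47 passed in this mean, with Itch at -0.25, Dlk2 at 0.10 and Dtx3 at 0.48. Without the second-named controls 0 of 48 tested rose and 1 fell, which was Itch. With GC offsets 3 rose and 4 fell, and Hdac2 was at -0.078. Notch4 was low, at 1.54 to 2.96 CPM in KR, against 0.580 and 0.631 CPM in KR controls. Notch4 is also known from endothelial cells, whose markers summed to 2.61 to 9.81 CPM in KR and 3.43 to 5.14 CPM in KR controls, and their part in its level was not tested.

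In the mean of the 3 mutants 12 of the 47 rose and 8 fell, beside 10.6% and 11.1% of all genes. Without the second-named controls 5 of 48 rose and 3 fell, and with the second-named share as a covariate 0 of 47 passed. Genes for cleavage of the receptor were among those that fell, with Adam17 at -0.45, Ncstn at -0.20, Aph1a at -0.23 and Aph1b at -0.60, while Furin (0.34), the protease that matures the receptor, rose. Itch (-0.45), Snw1 (-0.22) and Hdac2 (-0.29) fell as well. Notch4, Dlk2, Neurl1b, Numbl, Dtx2, Dtx3, Kat2a, Ctbp2, Tle1 and Tle2 were among those that rose.

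Known targets of Notch signalling were measured by a list of 10, of which 8 were tested. Bhlhe40, a transcriptional repressor gene, rose in KR with 154, 224, 162 and 198 CPM, against 118 and 83.9 CPM in KR controls (0.87 ± 0.19, adjusted p = 0.0334). It rose in LR with 310, 323 and 347 CPM, against 166, 180 and 208 CPM in LR controls (0.82 ± 0.17, adjusted p = 0.0211). The mean of both changes was 0.84 ± 0.13 (adjusted p = 9e-04) and passed whichever single mouse was left out. The KR call was lost without KR control 4 (adjusted p = 0.0640), KR control 6 (0.416), KR mouse 3 (0.101) or KR mouse 5 (0.0858), and the LR call without LR control 2 (0.0719), LR control 3 (0.0973) or LR mouse 3 (0.112). Without the second-named controls Bhlhe40 was at 0.62 in KR (adjusted p = 0.222). No other target on the list passed in a single mutant. Hes1, the best known target, had 72.2, 37.9, 72.0 and 63.5 CPM in KR, against 55.2 and 62.6 CPM in KR controls. It had 29.6, 43.7 and 35.1 CPM in LR, against 54.9, 54.7 and 39.3 CPM in LR controls (-0.45 ± 0.24, adjusted p = 0.372). Its change in KN1 was 0.25 ± 0.25 (adjusted p = 0.634).

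The genes behind the Cre drivers were read as well. Krt14, whose promoter is the K14 of K14-CreERT, rose by 0.82 ± 0.16 in KR (adjusted p = 0.0211). That call was lost without KR control 4 (adjusted p = 0.0808), KR control 6 (0.334), KR mouse 3 (0.0735) or KR mouse 5 (0.0621). Esr1, the estrogen receptor gene, part of which is fused to Cre in CreER constructs, had 17.0, 21.8, 25.3 and 24.2 CPM in KR, against 7.63 and 5.14 CPM in KR controls (1.78 ± 0.30, adjusted p = 0.0120). In KN1 it had 26.9, 26.9, 21.2 and 15.6 CPM, against 6.78 and 3.80 CPM in KN1 controls (2.07 ± 0.31, adjusted p = 0.00641). In LR it had 5.27, 5.78 and 6.03 CPM, against 3.19, 3.62 and 5.81 CPM in LR controls (0.42 ± 0.29, adjusted p = 0.511). The KR call in Esr1 was lost without KR control 4 (adjusted p = 0.0531) or 6 (0.270), and the KN1 call without KN1 control 7 (0.171). Without the second-named controls the KR calls of Krt14 (adjusted p = 0.151) and Esr1 (0.0791) were lost. Lrig1 passed in no mutant.

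The genes whose pattern over the 18 mice was most like that of a deleted gene were found among 11710 genes with a mean of at least 5 CPM, by the root mean square difference of centred log2 CPM. Values were centred over all 18 mice, so differences between batches enter this likeness. It does not show that a gene followed the deletion. For Notch1, whose own root mean square deviation was 0.74, they were G2e3 (0.16), Hjurp (0.23) and Dennd4c (0.33). G2e3, for example, averaged 4.85 CPM in KN1, against 8.36 CPM in KN1 controls, with 13.2 CPM in KR, against 14.5 CPM in KR controls, and 14.2 CPM in LR, against 15.1 CPM in LR controls. The KN1 batch was low in its controls too. Dennd4c averaged 36.5 CPM in KN1 and 43.4 CPM in KN1 controls, against 109 CPM in KR controls and 108 CPM in LR controls. Hjurp averaged 47.0 CPM in KN1 and 62.6 CPM in KN1 controls, against 122 CPM in KR controls and 133 CPM in LR controls. For Rbpj, whose own deviation was 0.33, the most similar genes were Ccdc47 (0.12), Slc39a9 (0.12) and Bmp2k (0.13). Ccdc47 averaged 71.9 CPM in KR, against 102 CPM in KR controls, 59.2 CPM in LR, against 81.8 CPM in LR controls, and 60.6 CPM in KN1, against 80.8 CPM in KN1 controls.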

How the data were processed

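RNA was measured in 18 mice. The deposited table holds raw counts per gene made by the authors, with no normalization. Per the submitters' processing notes, STAR, HTSeq, DESeq2 and the build mm10 were used; versions and the use of strand are not given in the sources used here. Whether reads of overlapping or antisense genes were told apart is therefore not known. Reads of KR control 4 and KN1 control 1 are merged from a pair of occasions.

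Counts were fitted with edgeR 4.0.16 in R 4.3.3: TMM factors, filterByExpr, robust quasi-likelihood F tests and 6 group means over all 18 mice, with contrasts of each mutant and its own controls, their means and their differences. The spread was shared by all 6 groups, also by those of 2 controls (common biological coefficient of variation 0.225). SEs come from the F statistic. Depth limits precision for Mfng, with 3 to 29 counts a mouse. Exon lengths, coordinates and transcript sequence are from GENCODE M21 on GRCm38, the assembly of mm10, and promoters from RefSeq. Shares were tested by exact permutation, two-sided. On counts simulated for 16517 genes, 50%, 53% and 41% of genes changed by 2-fold and 89%, 86% and 84% of those changed by 4-fold were recovered in KR, LR and KN1, with false calls of 5.44%, 4.14% and 4.58%.

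The members and lists were chosen with earlier results of these data known. Named besides the members are the drivers, list genes past the threshold in a mutant or mean comparison, and the best of each list. A few list genes counted as called are not reported here by name. Alternatives were DESeq2 1.42.0, RLE factors, other filters, each batch alone, a replicate block in LR, the second-named controls as a covariate or left out, each mouse left out, and GC offsets. No library repeated another of its group: mice of a group differed by a chi-square of at least 5.98 per degree of freedom. Libraries of different groups were not compared in this way. P-values reflect variation among these mice alone.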

Additional observations from a re-analysis of the deposited data

How the results depend on the processing

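Among members and headline counts, RLE factors, no filter and a mean CPM of at least 1 changed no call and no direction. With DESeq2, Rbpj passed in LR (-0.67, adjusted p = 0.0165), so 1 member was called there, and 1076, 536 and 797 genes were called in KR, LR and KN1, against 264, 185 and 325 by edgeR. With each batch fitted alone, 672, 66 and 98 genes were called, Notch1 in KN1 missed the threshold (-0.89, adjusted p = 0.142), leaving 0 members, and Notch3 in KN1 was at 0.00468. The cause of these differences was not tested.

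With the second-named share as a covariate (0.5 in merged controls, 1 in second-named controls and 0 in all other mice), 12 genes were called in KR, 19 in KN1, 109 in the mean of KR and LR and 53 in the mean of the 3. Members called fell to 0 in KN1 and in both means: Notch1 in KN1 was at -0.93 (adjusted p = 0.130), and Rbpj, Notch2 and Jag2 were at -0.22, -0.25 and 0.21 in the mean of KR and LR and at -0.12, -0.071 and 0.19 in the mean of the 3. Uncalled values changed sign for Maml1 in KR (0.11), LR (0.048) and KN1 (0.17), and in KN1 for Notch2 (0.28), Notch3 (0.019), Jag1 (0.096), Lfng (0.017) and Rbpj (0.091). All KR and KN1 controls have a share of 0.5 or 1, so the covariate extends beyond their range.

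Without the 3 second-named controls, 1 control each, assumed to vary like the other groups, remained in KR and KN1. Called genes were 32 in KR, 41 in KN1, 491 in the mean of KR and LR, 1125 in the mean of the 3 and 1325 between the controls, against 2099, 3576 and 4246 with them. Notch2 missed the threshold in both means (-0.46 and -0.29), as did Jag2 (0.35 and 0.34), which left 1 member in each. Signs changed for Maml1 in KR (0.030), LR (0.0090) and KN1 (0.026), Notch1 in LR (0.0175), Notch2 (0.044) and Dll1 (-0.15) in KN1 and the Lfng share in KN1 (-0.072 percentage points, against 0.62).

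GC offsets, chosen after seeing the data, called 143 genes in KR. In the mean of the 3 they called 5 members, beside 2874 of all genes. Jag2 missed the threshold in the mean of KR and LR (0.22), and signs changed for Notch1 in KR (-0.15) and Lfng in LR (-0.13).

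With each mouse left out, called genes ran from 5 to 1353 in KR, 60 to 246 in LR, 2 to 640 in KN1, 686 to 2778 in the mean of KR and LR, 2163 to 3997 in the mean of the 3 and 1644 to 4612 between controls. Members called ran from 0 to 2 in KR, 0 to 1 in LR, 0 to 1 in KN1 and 1 to 3 in the mean of KR and LR. Ranges were -1.17 to -0.62 for Notch1 in KN1, -0.80 to -0.36 for Rbpj in LR, -0.50 to -0.44 for Rbpj in KR, -0.64 to -0.44 for Notch2 and 0.42 to 0.64 for Jag2 in the mean of KR and LR, and -0.48 to -0.34 for Notch2 in the mean of the 3. Uncalled values that changed sign ranged as follows: in KN1 -0.15 to 1.11 for Dll1, -0.40 to 0.37 for Jag1, -0.28 to 0.20 for Lfng, -0.20 to 0.026 for Maml1, -0.32 to 0.044 for Notch2 and -0.10 to 0.053 for Notch3; in LR -0.15 to 0.18 for Jag1, -0.078 to 0.14 for Lfng, -0.15 to 0.011 for Maml1 and -0.11 to 0.033 for Notch1; in KR -0.33 to 0.030 for Maml1. The Lfng share difference in KN1 ran from -0.072 to 1.31 percentage points.

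A replicate block on numbers 2 and 3 of LR changed no member's call (Rbpj -0.62, adjusted p = 0.0904; 163 genes called). In their deviations from the group means, same-numbered mice correlated at 0.03 for number 2 and -0.13 for number 3. Differently numbered mice correlated at -0.27 to 0.36. Deviations from means of 3 mice depend on each other, so these values do not decide whether the mice were paired.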
